A study of Mus musculus with 10 samples.

Results

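The 6 mouse genes of the MAPEG family (membrane-associated proteins in eicosanoid and glutathione metabolism) were followed in mouse RPE, the retinal pigment epithelium that lies behind the photoreceptors and serves them. They are Mgst1, Mgst2, Mgst3, Ltc4s, Alox5ap and Ptges, named as a family and found by symbol among the 47729 genes of the count table, and all 6 passed the filter on low counts. RNA had been collected from cleaned eyecups of 5 CD1 mice, wild type and 40 days old, and 1 eye of each mouse was a GFP control eye and the other an Nrf2 eye. GFP control eyes had been injected with AAV Best1 GFP, an adeno-associated virus in which the RPE promoter Best1 drives a fluorescent protein. Nrf2 eyes had been injected with that vector plus AAV Best1 hNrf2, which carries the human coding sequence of Nrf2, so that every eye had a GFP vector and the Nrf2 eyes had the larger total amount of vector, which cannot be told apart from Nrf2 itself here. The Best1 promoter is known for its activity in RPE, and RNA of the other cells of the eyecup was in the same samples.

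MAPEG proteins are small enzymes or helper proteins that sit in the membranes of the endoplasmic reticulum and nucleus, and most of them bind glutathione, the main small antioxidant of the cell. MGST1, MGST2 and MGST3 can join glutathione to reactive compounds and reduce lipid peroxides. ALOX5AP hands arachidonic acid to 5-lipoxygenase, LTC4S joins glutathione to leukotriene A4 to make leukotriene C4, and PTGES, also called mPGES-1, makes prostaglandin E2 with glutathione as cofactor. Nrf2 is a transcription factor that binds antioxidant response elements and is known for switching on genes of glutathione synthesis and conjugation.

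Promoter sequence was taken for 5 of the 6 genes, all but Alox5ap, in 6 windows of 300 bases that run from 250 bases before to 50 bases after a transcription start (RefSeq, GRCm38.p6). The stretches below are shown because they hold the letters of common promoter elements, which are in capitals, and each is read 5′ to 3′ on the strand of its gene. The antioxidant response element was searched as TGACNNNGC, the AP-1 site as TGANTCA, the TATA box as TATAAA and the GC box as GGGCGG, on both strands.
Mgst1, chr6:138140457-138140486, + strand, with the antioxidant response element letters in reverse complement: gaaggcggggcttgGCACGGTCAggaggcg
Mgst2, chr3:51661123-51661152, + strand, with an AP-1 site and a TATA box: ctgtTGACTCAactctgttgccTTTATAAA
Mgst3, chr1:167393842-167393901, - strand, with GC boxes: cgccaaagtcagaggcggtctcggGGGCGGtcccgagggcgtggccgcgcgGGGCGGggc
Ptges, chr2:30903298-30903357, - strand, with GC boxes: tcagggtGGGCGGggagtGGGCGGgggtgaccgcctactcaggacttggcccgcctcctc
The antioxidant response element letters were in 1 of the 6 windows, that of Mgst1, and in 12.4% of all 32851 windows of the same length. They began at -56 from the RefSeq start of Mgst1, within an exon of another Mgst1 transcript in GENCODE M21. The AP-1 and TATA letters were each in 1 of the 6, that of Mgst2, against 7.81% and 13.6% of all windows. The capitals TTTATAAA hold the TATA letters on both strands, with 4 bases shared. GC boxes were in 3 of the 6 windows, of Mgst1, Mgst3 and Ptges, against 35.7%, and those in capitals began at -36 and -9 in Mgst3 and at -53 and -42 in Ptges. A match only describes these letters, and the absence of one says nothing of the factor.

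The libraries held 12298404 to 27310638 counts, and a count of 0 allows up to 0.110 to 0.244 CPM (counts scaled to the library total), where this limit of 3 counts covers counting error only. Nfe2l2, the mouse gene of Nrf2, had 79.3 to 110 CPM in the control eyes and 267 to 414 CPM in the Nrf2 eyes, and these counts can include reads of the human sequence. Summed over 12 RPE markers, the control eyes had 22682 to 43400 CPM and the Nrf2 eyes 12354 to 30447 CPM, lower in the Nrf2 eye of all 5 mice. At an edgeR adjusted p-value under 0.05, 5 of the 12 markers fell (Rpe65, Rlbp1, Lrat, Rgr and Otx2) and 0 rose, where 2.73% of all tested genes fell and 3.6% rose. Among the others 4 had a higher mean in the Nrf2 eyes, and Ttr had 11543 ± 4768 and 11751 ± 5384 CPM (SD, n = 5 each). RNA of rods was far higher in both eyes of mouse 2, with 18171 summed CPM of 10 markers in its control eye and 7096 in its Nrf2 eye, while the other 8 libraries had 38.1 to 2687 summed CPM. In bulk RNA such as this, fewer cells of a type and less RNA per cell cannot be told apart.

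Of the 6 family genes, 3 differed between the eyes of a mouse at an adjusted p-value under 0.05 (edgeR quasi-likelihood test with the mouse as a block, Benjamini-Hochberg over 16362 tested genes). Mgst1 and Ltc4s rose and Ptges fell, and Ltc4s, like Alox5ap, passed the filter on low counts only with the Nrf2 eyes included. Of all tested genes 6.33% passed the same threshold, 3.6% higher and 2.73% lower in the Nrf2 eyes. In the same 3 genes the 5 control and the 5 Nrf2 values did not overlap, which held for 6.28% of all tested genes. The median log2 fold change of the 6 genes was 0.82, beside -0.01 for all tested genes. The number of family genes past the threshold was 3 without mouse 1 (5.27% of all tested genes there), 1 without mouse 2 (3.58%), 2 without mouse 3 (4.32%), 1 without mouse 4 (3.66%) and 1 without mouse 5 (4.15%). It was 4 with DESeq2 (9.08%), 2 with the eyes unpaired (4.61%) and 1 with the summed rod markers as a covariate (3.03%).

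**Figure D1:**
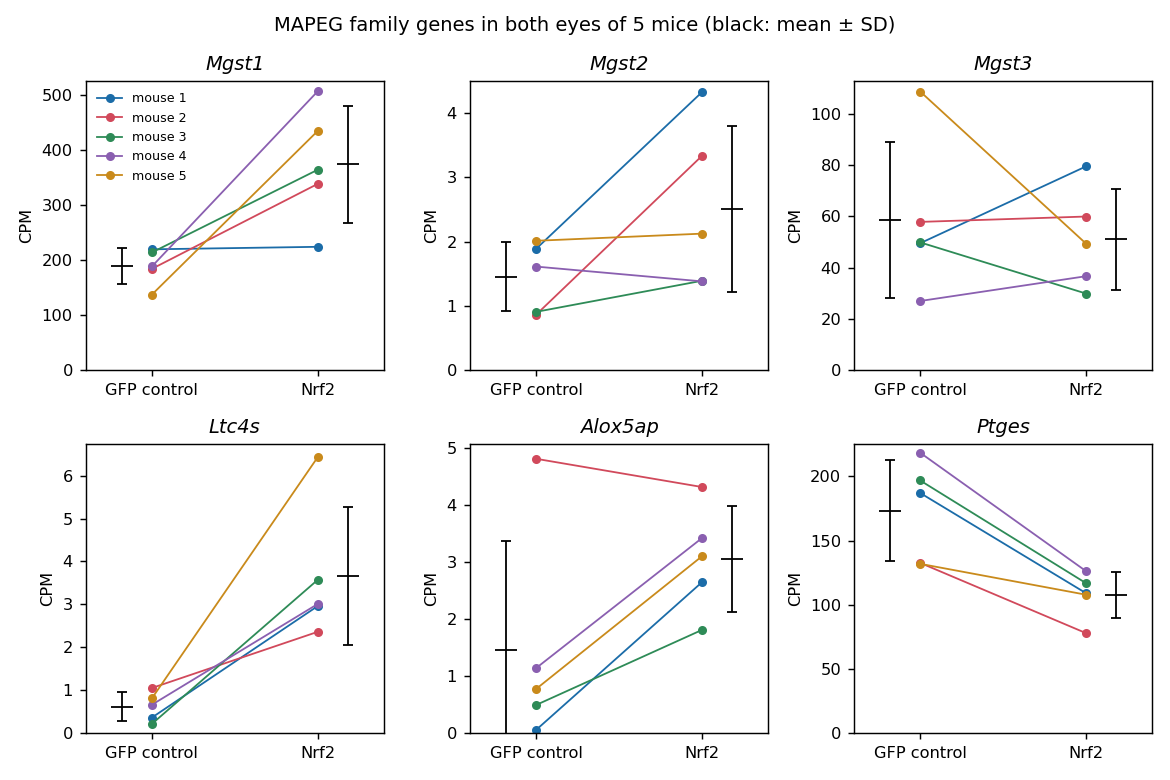
CPM of each family gene (y axis, from 0) in the GFP control and the Nrf2 eye (x axis) of 5 mice, with a line for each mouse and the mean ± SD of each group in black. Mgst1 and Ltc4s were higher and Ptges was lower in the Nrf2 eye of every mouse, while the lines of Mgst2, Mgst3 and Alox5ap do not all run the same way.

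Mgst1 (ENSMUSG00000008540, chromosome 6, 138140316 to 138156755, mm10), which encodes the microsomal glutathione transferase abundant in liver, had 219, 184, 214, 188 and 137 CPM in the control eyes of mice 1 to 5. In the Nrf2 eyes of the same mice it had 224, 338, 364, 506 and 434 CPM. All 5 Nrf2 values lay above all 5 control values, but mouse 1 was almost level between its eyes, with a ratio of 1.02, while mice 2 to 5 had ratios of 1.84, 1.70, 2.69 and 3.17. The group values were 188 ± 32.6 and 373 ± 106 CPM (SD, n = 5 each), a change of 0.94 ± 0.28 (log2 fold change ± SE, edgeR adjusted p = 0.0446). The call was not kept with the rod covariate (0.80, adjusted p = 0.211) or without mouse 2 (1.00, adjusted p = 0.128), mouse 3 (1.04, 0.0956), mouse 4 (0.86, 0.148) or mouse 5 (0.78, 0.108).

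RNA of skeletal muscle moved in part with Mgst1. The summed CPM of 6 muscle markers went from 86.2 to 9.97 in mouse 1 and from 49.5 to 17 in mouse 2, both lower in the Nrf2 eye, and from 84.1 to 360, from 88.2 to 235 and from 56.4 to 568 in mice 3, 4 and 5. With the muscle list as a covariate, a setting added after the data were seen, the log2 fold change of Mgst1 was 0.87 (adjusted p = 0.0127). The summed CPM of 6 fibroblast markers, none of which passed the threshold, went from 677 to 135 in mouse 1, from 279 to 348 in mouse 2, from 125 to 227 in mouse 3, from 214 to 774 in mouse 4 and from 545 to 379 in mouse 5. The macrophage and microglia sum was higher in the Nrf2 eye of all 5 mice, and its part and that of fibroblasts in the values of Mgst1 were not tested. The markers of fat cells were near 0, with at most 1.42 summed CPM over 5 genes in any library.

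Mgst2 (ENSMUSG00000074604, chromosome 3, 51660360 to 51682677), whose enzyme can also make leukotriene C4, was scarce, with 13 to 95 counts in a library. It had 1.89, 0.863, 0.908, 1.61 and 2.01 CPM in the control eyes and 4.33, 3.33, 1.39, 1.38 and 2.12 CPM in the Nrf2 eyes of mice 1 to 5. Mice 1 and 2 had the highest Nrf2 values, mouse 4 was lower in its Nrf2 eye, and the groups overlapped. The log2 fold change ± SE was 0.71 ± 0.37 (edgeR adjusted p = 0.409), within the spread between mice, and it was 0.45 without mouse 2 (adjusted p = 0.754).

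Mgst3 (ENSMUSG00000026688, chromosome 1, 167371966 to 167393841), which encodes a transferase and lipid peroxidase, had 49.5, 57.9, 49.9, 27 and 109 CPM in the control eyes. In the Nrf2 eyes it had 79.5, 59.9, 29.9, 36.7 and 49.4 CPM. The control eye of mouse 5 was the highest of the 10 libraries, and the Nrf2 eye was the higher one in mice 1, 2 and 4 and the lower one in mice 3 and 5. The log2 fold change ± SE was -0.15 ± 0.35 (edgeR adjusted p = 0.859), and it was positive without mouse 3 (0.05) or without mouse 5 (0.12).

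The changes of these 3 transferase genes were set against each other within each mouse, as differences of log2 ratio. Mgst1 exceeded Mgst3 by 1.09 (SE 0.56), in 4 of 5 mice, Mgst2 exceeded Mgst3 by 0.82 (SE 0.42), in 4 of 5 mice, and Mgst1 exceeded Mgst2 by 0.27 (SE 0.59), in 3 of 5 mice. None of the 3 differences passed a two-sided exact paired permutation test (p = 0.125, 0.188 and 0.688, adjusted over the 3 pairs 0.281, 0.281 and 0.688), but 5 mice allow no p that passes, so that this test says nothing of whether the genes responded alike. The difference between Mgst1 and Mgst2 was -0.07 without mouse 4 and -0.06 without mouse 5. The difference between Mgst1 and Mgst3 was 0.67 without mouse 5.

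Ltc4s (ENSMUSG00000020377, chromosome 11, 50236461 to 50238616), the gene of leukotriene C4 synthase, had 7, 17, 3, 11 and 22 counts in the control eyes, which are 0.357, 1.05, 0.209, 0.657 and 0.806 CPM. In the Nrf2 eyes it had 65, 58, 95, 37 and 106 counts, or 2.96, 2.36, 3.57, 3.01 and 6.44 CPM. Every Nrf2 value was above every control value, and the control eye of mouse 2 and the Nrf2 eye of mouse 2 lay nearest to each other. In mouse 3 the ratio of 17.1 rested on 3 control counts and had a 95% counting interval of 5.66 to 84.2. The group values were 0.615 ± 0.338 and 3.67 ± 1.61 CPM (SD, n = 5 each), a change of 2.59 ± 0.42 (log2 fold change ± SE, edgeR adjusted p = 0.0163). The control counts alone would not have passed the filter on low counts, so this fold is not ranked against those of the other genes. The call was just missed without mouse 4 (2.74, adjusted p = 0.0502), without mouse 5 (2.49, adjusted p = 0.0635) and with the rod covariate (2.84, adjusted p = 0.0540).

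Ltc4s shares 268 exon bases with Gm26542, an antisense gene with 76 counts over the 10 libraries, beside 421 of Ltc4s, and without a stated strand setting reads of the pair cannot be told apart. Alox5ap (ENSMUSG00000060063, chromosome 5, 149264767 to 149288153), the gene of the 5-lipoxygenase activating protein, was also scarce, with 0.0510, 4.81, 0.489, 1.13 and 0.769 CPM in the control eyes. In the Nrf2 eyes it had 2.64, 4.31, 1.81, 3.42 and 3.10 CPM. The control eye of mouse 2 was higher than every other library, so that mouse 2 was lower and the other 4 mice were higher in the Nrf2 eye. The Nrf2 eye of mouse 2 came next, and both eyes of mouse 2 also held the most rod RNA (18171 and 7096 summed CPM). The source of the Alox5ap RNA in mouse 2 was not tested. In mouse 1 the control eye had 1 count and the Nrf2 eye 58, a ratio of 51.8 with a 95% counting interval of 8.93 to 2080.

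The control counts of Alox5ap alone would not have passed the filter on low counts either. The log2 fold change ± SE of Alox5ap was 1.78 ± 0.69 (edgeR adjusted p = 0.198), not past the threshold. It passed with DESeq2 (1.89, adjusted p = 0.0327), did not pass without mouse 2 (2.41, adjusted p = 0.142), and was 1.07 with the eyes unpaired (adjusted p = 0.600).

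RNA of macrophages and microglia was higher in the Nrf2 eye of all 5 mice, as Ltc4s was in 5 and Alox5ap in 4 of them. Of 18 markers of these cells, all tested, 15 rose and 0 fell, where 3.6% of all tested genes rose and 2.73% fell. Their median log2 fold change was 4.00, beside -0.01 for all tested genes, and some, such as Trem2 and P2ry12, had means of only 0.725 and 0.722 CPM in the control eyes. The summed CPM of the 18 markers was 364, 321, 401, 349 and 330 in the control eyes and 1392, 676, 1006, 1560 and 2708 in the Nrf2 eyes, and it was highest in the Nrf2 eye of mouse 5, where Ltc4s was highest too. Among the Nrf2 eyes Alox5ap was highest in mouse 2, at 4.31 CPM, where the sum was lowest. Csf1r and Itgam had log2 fold changes of -0.57 and 0.34 (adjusted p = 0.301 and 0.618), and they had 196 ± 50.5 and 93.8 ± 44.1 CPM (SD, n = 5 each) in the control eyes, most of the control sums. Of the 6 neutrophil markers 3 were tested and 1 rose, Csf3r, which macrophages also use. Of the 8 mast cell markers, 5 were under 1 CPM in every library, the summed level was 41.1 to 134 CPM in control eyes and 51.0 to 105 CPM in Nrf2 eyes, and most of it was Kit. The part of these cells in the values of Ltc4s and Alox5ap was not tested.

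**Figure D2:**
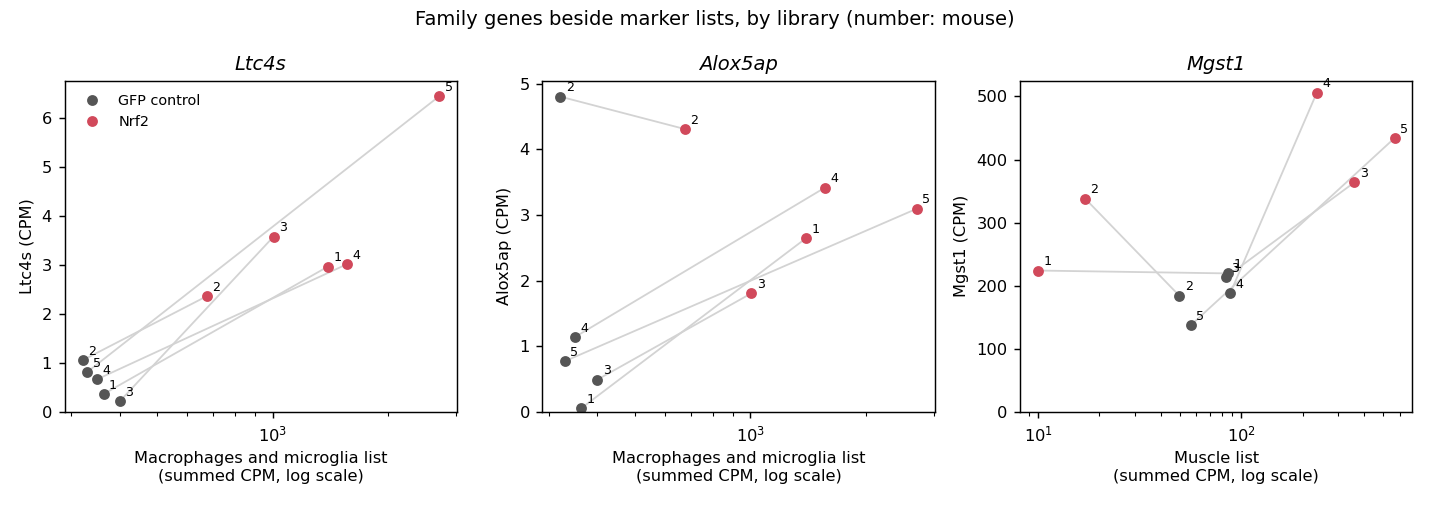
CPM of Ltc4s and Alox5ap (y axes) against the summed CPM of the macrophage and microglia list, and of Mgst1 against that of the muscle list (x axes, log scale), in 5 GFP control (grey) and 5 Nrf2 (red) libraries, numbered by mouse with a line joining the eyes of a mouse. The Nrf2 libraries lie to the right of all control libraries in the first 2 panels, from 676 summed CPM up, and the control eye of mouse 2 stands apart in the Alox5ap panel at 4.81 CPM.

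Ptges (ENSMUSG00000050737, chromosome 2, 30889471 to 30929863), the gene of the inducible prostaglandin E synthase, had 187, 133, 197, 218 and 132 CPM in the control eyes. In the Nrf2 eyes it had 109, 77.8, 117, 126 and 108 CPM. All 5 Nrf2 values were under all 5 control values, although the highest Nrf2 value, in mouse 4, was close to the lowest control values, in mice 2 and 5. The ratio of the eyes was 0.582, 0.587, 0.593 and 0.577 in mice 1 to 4 and 0.817 in mouse 5. The group values were 173 ± 39.2 and 107 ± 18.1 CPM (SD, n = 5 each), a change of -0.69 ± 0.10 (log2 fold change ± SE, edgeR adjusted p = 0.00803). The call was missed with the eyes unpaired (-0.70, adjusted p = 0.0606) and without mouse 2 (-0.63, adjusted p = 0.0579). The RPE marker sum was also lower in the Nrf2 eye of all 5 mice, and its part in this result was not tested.

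Levels were compared between genes as CPM per kilobase of exon. In the control eyes Mgst1 came first (93.6 ± 16.2), before Mgst3 (53.4 ± 27.6), Ptges (44.1 ± 9.98), Alox5ap (1.02 ± 1.35), Ltc4s (0.607 ± 0.333) and Mgst2 (0.393 ± 0.146; SD, n = 5 each). The ranges of neighbours in this order overlapped in all cases but 1, the step from Ptges to Alox5ap. Without mouse 5 Ptges was above Mgst3, by 4.76 CPM per kilobase, and without mouse 2 Ltc4s was above Alox5ap. In the Nrf2 eyes the order was Mgst1 (185 ± 52.7), Mgst3 (46.6 ± 17.9), Ptges (27.3 ± 4.61), Ltc4s (3.62 ± 1.58), Alox5ap (2.15 ± 0.653) and Mgst2 (0.678 ± 0.348). There Mgst1 lay above Mgst3, Ptges above Ltc4s and Alox5ap above Mgst2 in all 5 libraries with no overlap of the ranges, while Mgst3 and Ptges, and Ltc4s and Alox5ap, overlapped. The smallest adjusted p of these 10 neighbour pairs was 0.156 (two-sided exact paired permutation test), from the smallest p that 5 libraries allow.

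**Figure D3:**
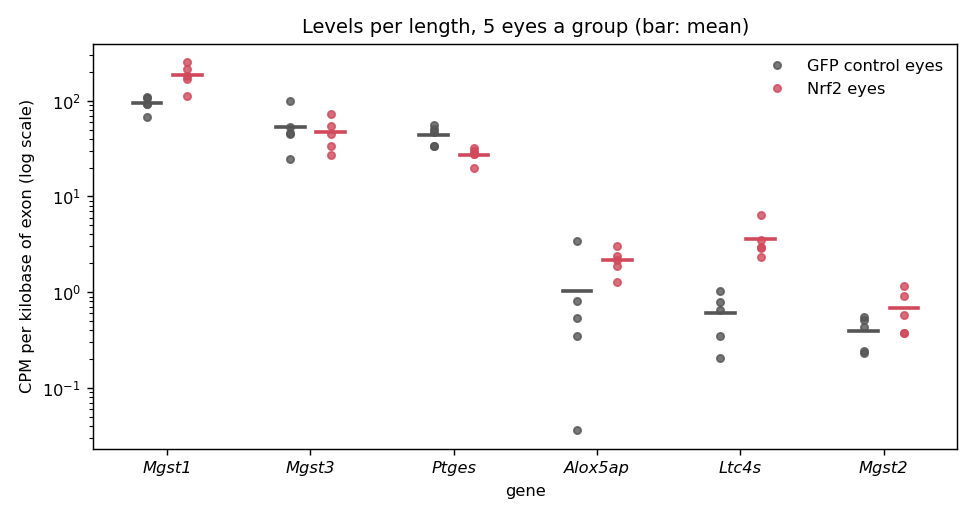
CPM per kilobase of exon (y axis, log scale) of the 6 family genes (x axis, in the order of the control means) in 5 GFP control (grey) and 5 Nrf2 (red) eyes, with bars at the means. Mgst1, Mgst3 and Ptges lie above 19 and the other 3 genes under 7 in every library.

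The genes around LTC4S and ALOX5AP were then read from a list of 22 leukotriene genes, of which 18 are not of the family. Of these 18, 11 were tested, and 3 rose and 1 fell (36.4%, against 6.33% of all tested genes), with a median log2 fold change of 0.39. With DESeq2 6 of 13 passed, against 9.08% of all genes tested there. Upstream, Pla2g4a, which frees arachidonic acid from membranes, had 28.7 ± 8.21 CPM in control and 44.6 ± 5.87 CPM in Nrf2 eyes (log2 fold change 0.65, adjusted p = 0.0894 with edgeR, and 0.66 with adjusted p = 0.0190 with DESeq2). Alox5, the gene of the 5-lipoxygenase that ALOX5AP serves, had 0 to 18 counts in a library and was not tested. Lta4h, which turns leukotriene A4 into leukotriene B4 in place of leukotriene C4, had 59.2 ± 11.9 and 59.6 ± 7.47 CPM (log2 fold change 0.01, adjusted p = 0.986).

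Of the 4 genes that passed, Abcc1, Ggt5 and Dpep2 act after leukotriene C4 and Ptgr1 acts on leukotriene B4. Abcc1, the gene of an exporter of leukotriene C4 and other glutathione conjugates, rose from 97.9 ± 31.3 to 238 ± 28.1 CPM (mean ± SD, 5 eyes each here and for the genes that follow), or by 1.32 ± 0.19 (log2 fold change ± SE, edgeR adjusted p = 0.00361). Ggt5, which cuts leukotriene C4 to leukotriene D4, rose from 2.45 ± 1.45 to 15.8 ± 5.95 CPM (2.77 ± 0.43, adjusted p = 0.00651). Dpep2, a dipeptidase gene whose enzyme can act on leukotriene D4, fell from 10.9 ± 2.68 to 3.04 ± 1.83 CPM (-1.99 ± 0.35, adjusted p = 0.0137), and missed the threshold without mouse 4 (-1.87, adjusted p = 0.0596) and with the rod covariate (-1.84, adjusted p = 0.0782). Dpep2 overlaps Dus2 on the opposite strand, whose log2 fold change was -0.38. Ptgr1, whose enzyme inactivates leukotriene B4 and prostaglandins and is a known Nrf2 target, rose from 145 ± 99.8 to 1125 ± 75.2 CPM (3.18 ± 0.38, adjusted p = 0.00255). The macrophage and microglia sum was higher in the Nrf2 eye of all 5 mice as well, and its part in these changes was not tested. The tested receptor genes Ltb4r1, Ltb4r2 and Cysltr1 had means of at most 3.68 CPM, with adjusted p-values of 0.708 to 0.989.

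For PTGES a list of 29 prostaglandin genes was used, 28 of them outside the family. Of the 23 tested, 4 rose and 4 fell (34.8%, against 6.33%), and the median log2 fold change was 0.24. One of those that rose is Ptgr1, which both lists hold and which was counted in the leukotriene list as well. Ptgs1, the gene of cyclooxygenase 1, rose from 20.5 ± 3.67 to 44.2 ± 17.2 CPM (1.02 ± 0.22, adjusted p = 0.0207), with adjusted p-values of 0.0638 to 0.0893 without mouse 1, 2, 4 or 5 and of 0.0839 with the rod covariate. Ptgs2, the inducible cyclooxygenase gene, had 1.59 ± 1.43 and 2.01 ± 1.34 CPM (adjusted p = 0.758). Pla2g5, a secreted phospholipase gene, fell from 434 ± 133 to 253 ± 44.4 CPM (-0.76 ± 0.15, adjusted p = 0.0163), with adjusted p-values of 0.0566 to 0.0899 without mouse 1, 2, 3 or 4. The call of Pla2g5 was also missed with the eyes unpaired (-0.79, adjusted p = 0.0695) and with the rod covariate (-0.66, adjusted p = 0.0827), and it ran from -0.79 to -0.66 where missed.

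Other genes of the list, most of them of terminal synthases, are described one by one. Ptges2, a prostaglandin E synthase gene of another family, fell from 68.6 ± 17.1 to 44.3 ± 4.82 CPM (-0.62 ± 0.13, adjusted p = 0.0239), and Ptges3, the cytosolic one, had 113 ± 4.30 and 125 ± 12.2 CPM (0.12, adjusted p = 0.548). Ptgds, the prostaglandin D synthase and by far the most abundant gene of the list, fell from 13876 ± 4586 to 6465 ± 2686 CPM (-1.16 ± 0.23, adjusted p = 0.0297). Ptgis, the prostacyclin synthase gene, fell from 66.8 ± 17.8 to 19.5 ± 9.67 CPM (-1.86 ± 0.23, adjusted p = 0.00269), and its call was kept without each mouse in turn. Hpgds, the hematopoietic prostaglandin D synthase gene, had 32.2 ± 29.5 and 27.1 ± 12.5 CPM (0.05 ± 0.59, adjusted p = 0.979), and Tbxas1, the thromboxane synthase gene, had 3.93 ± 2.18 and 6.66 ± 3.02 CPM (0.77 ± 0.40, adjusted p = 0.296, higher in 4 of 5 mice). Akr1b3, also in the list, had 131 ± 49.3 and 142 ± 27.3 CPM (0.14 ± 0.19, adjusted p = 0.771). The RPE marker sum was lower in the Nrf2 eye of all 5 mice as well, and its part in these falls was not tested. The calls of Ptges2 and Ptgds were both missed without mouse 1, 2, 3 or 4, with adjusted p-values of 0.0722 to 0.127 and 0.0619 to 0.127. They were also missed with the eyes unpaired (Ptges2 -0.64, adjusted p = 0.0581, and Ptgds -1.11, 0.121) and with the rod covariate (-0.50, 0.0966, and -1.03, 0.139). Over all these settings the log2 fold change ran from -0.64 to -0.50 for Ptges2 and from -1.22 to -0.99 for Ptgds.

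Among the genes of removal, Abcc4, an exporter that carries prostaglandin E2, rose from 87.9 ± 10.02 to 618 ± 87.4 CPM (2.79 ± 0.11, adjusted p = 7.0e-05). Cbr1, a carbonyl reductase that acts on prostaglandin E2, rose from 63.8 ± 4.04 to 127 ± 10.1 CPM (0.97 ± 0.05, adjusted p = 0.00108). Hpgd, the gene of the main prostaglandin dehydrogenase, had 8.11 ± 5.28 and 8.57 ± 3.77 CPM (0.17, adjusted p = 0.840). The macrophage and microglia sum was higher in the Nrf2 eye of all 5 mice, and its part in the rises of Ptgs1, Abcc4 and Cbr1 was not tested. No tested prostanoid receptor gene passed the threshold. The 8 calls of this list became 4 without mouse 1, 2 or 4 (5.27%, 3.58% and 3.66% of all tested genes), 5 without mouse 3 (4.32%), 7 without mouse 5 (4.15%), 4 with the rod covariate (3.03%), 5 with the eyes unpaired (4.61%) and 10 of 26 tested with DESeq2 (9.08%).

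**Figure D4:**
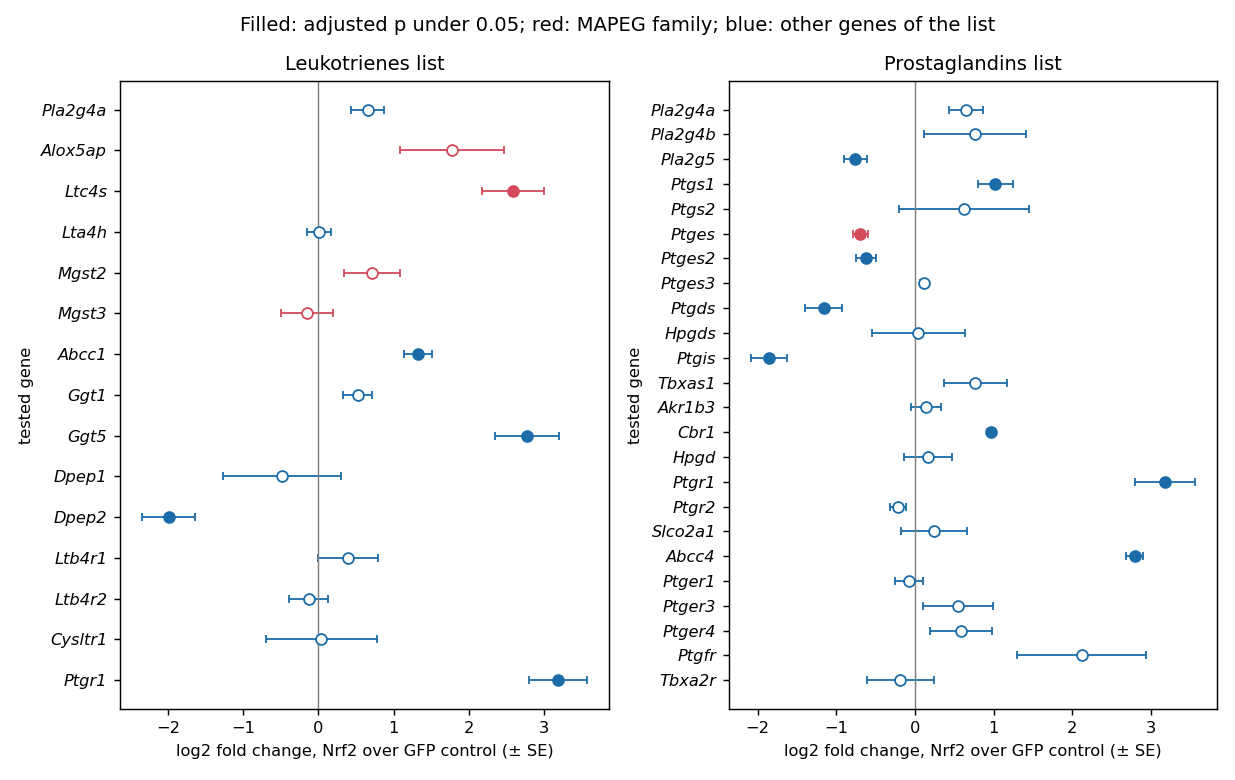
Log2 fold change of Nrf2 over GFP control eyes (x axis, with the SE of the 5 within-mouse differences) for the tested genes (y axis) of the leukotriene and the prostaglandin list, with family genes in red, other genes in blue and filled points for an adjusted p-value under 0.05. Ltc4s, Ggt5, Abcc1 and Ptgr1 lie to the right of 0 and Dpep2 to the left, while Ptges lies left of 0 with Pla2g5, Ptges2, Ptgds and Ptgis.

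The cytosolic glutathione transferases, which share the conjugation reaction but not the fold of the family, were set beside it. Of 24 genes 22 were tested, and 10 rose and 2 fell (54.5%, against 6.33% of all tested genes), with a median log2 fold change of 0.94, beside 3 of 6 and 0.82 in the MAPEG family. Named among those that rose were Gstm1 (6.07), Gstm2 (1.90) and Gstm4 (1.73), Gsta2 (3.23), Gsta1 (2.98) and Gsta3 (2.14), and Gstp1 (1.63), all log2 fold changes. Gstm3, also counted as higher, had 1, 1, 0, 0 and 0 counts in the control eyes and 17 to 59 counts in the Nrf2 eyes, so that it passed the filter on low counts through the Nrf2 eyes alone and no fold is given for it. Gstt2 (-0.97) and Gstt3 (-0.61) fell, and close relatives among these genes could share reads. Several of the cytosolic genes are well-known Nrf2 targets, and the 2 lists were not tested against each other.

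The tested genes whose log2 CPM followed a family gene most closely over the 10 libraries were found as a description, by Pearson's r, with eyes of the same mouse and the same groups shared among the points. Ltc4s was followed by Pilra (r = 0.98), P2ry12 (0.96) and Fcrls (0.96), of which Pilra is a receptor of myeloid cells and P2ry12 and Fcrls are microglial genes. Their means were 0.208, 0.722 and 0.616 CPM in the control eyes and 1.51, 46.2 and 28.2 CPM in the Nrf2 eyes. Pilra and P2ry12 passed the filter on low counts only with the Nrf2 eyes included, and no fold is given for these genes. After the group means were taken out, the r of these 3 genes with Ltc4s were lower, at 0.90, 0.82 and 0.74. Ptges was followed by Rab20, the metallothionein gene Mt1 and the peroxisomal membrane gene Pxmp2 (0.98 each), which fell by 0.91, 0.88 and 0.92 on the log2 scale (r without the group means 0.95, 0.94 and 0.94). Mgst1 was followed by the small heat shock gene Hspb8, Jsrp1, a gene of the sarcoplasmic reticulum of muscle, and Angptl2 (0.96 each, and 0.94, 0.87 and 0.89 without the group means). Mgst3 was followed by Rasgrf1, Plekhn1 and Sytl1 (0.99 each), none of which passed the threshold, and this held within the groups too, with r of 0.99 each after the group means were taken out. Mgst2 was followed by Ltb4r1, Ube2r2 and Rint1 (0.93, 0.93 and 0.92, and 0.93, 0.91 and 0.92 without the group means), at the low counts given above.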

How the data were processed

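The deposited values are raw counts per Ensembl gene with no normalization. The authors aligned reads with STAR to mm10 with transcripts of Ensembl release 91 and counted them with featureCounts, and in parallel estimated counts with Salmon (0.8.2 per the labels), used with DESeq2. Which table was deposited and the strand setting are not given in the sources used here, and polyA RNA had been amplified from low input, so counts are not independent molecules. Per the labels sequencing took place in separate runs, but all 10 titles carry the same date and pool name, and no run is given for a library. The table held 0 columns of other samples, and all pairs of libraries differed beyond sampling noise (chi-square per degree of freedom of at least 34.5).

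Gene symbols, positions and exon lengths came from GENCODE M21 (same build, 99.1% of identifiers matched). Eyes were paired by the animal number in the labels. As a check, each library's gene values were centred on their group. Across genes, same-mouse eyes then had Pearson's r of 0.19 to 0.71, and eyes of unlike mice a median r of -0.08 (-0.42 to 0.28).

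Tests used edgeR 4.0.16 (R 4.3.3) with filterByExpr, TMM, the quasi-likelihood F test and a mouse block, Benjamini-Hochberg over all tested genes and a threshold of 0.05, and were tested on simulated data. Log2 fold changes are fitted values. The SE is that of the mean log2 ratio over 5 mice, from log2 CPM with a prior count of 2. Exact paired permutation tests flipped signs within mice or libraries. Counting intervals of ratios are exact (Clopper-Pearson on the share of counts). Alternatives were no block, DESeq2 1.42.0, its size factors, other filters, a rod covariate and each mouse left out, and, added after the data were seen, a muscle covariate and all settings for the pathway genes. The family and lists were chosen with earlier results of these data known. Named were all family genes, genes next to them in their pathways, the called genes of each list with the largest changes (up to 8) and the 3 genes most like each family gene, which for Alox5ap are not reported here. Gstt2 and Gstt3, as the 2 transferase genes that fell, Hpgds, Tbxas1, Akr1b3 and the leukotriene receptor genes were named beyond that rule, after their values were seen.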

Additional observations from a re-analysis of the deposited data

Results flagged for a closer look

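Among 18 groups of 5 values of the family genes (log2 CPM in each group of eyes, and the within-mouse log2 ratios), 1 held a value far from the others, where chance gives about 0.9. The log2 ratio of Ptges in mouse 5 was -0.29, while mice 1 to 4 lay between -0.79 and -0.75, so that the gap took up 0.923 of the range, above the critical 0.71. The control eye of mouse 5 had 132 CPM, the lowest of the control eyes, beside 133 CPM in mouse 2. Without mouse 5 the log2 fold change of Ptges was -0.77 (adjusted p = 0.0106 with edgeR).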

How the results depend on the processing

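The mouse block was used in the reported fit. With the eyes unpaired, 755 genes passed in place of 1036, 2 of the 6 family genes passed (Mgst1 and Ltc4s), the value of Ptges was -0.70 with its call lost, and 5 genes of the prostaglandin list passed in place of 8. DESeq2 gave 1808 genes, over 19913 with an adjusted p-value against 16362 with edgeR, and 4 family genes, with Alox5ap at 1.89 now past the threshold. The rod covariate gave 495 genes, 1 family gene (Ptges), 4 prostaglandin genes, 0.80 for Mgst1 and 2.84 for Ltc4s, both calls lost. The cause of these shifts was not tested. Without each mouse in turn the counts ran from 584 to 857 for all genes, from 1 to 3 for the family and from 4 to 7 for the prostaglandin list. The values ran from 0.78 to 1.18 for Mgst1, from -0.35 to 0.12 for Mgst3, from 2.37 to 3.02 for Ltc4s and from -0.77 to -0.62 for Ptges. The difference of log2 ratio between Mgst1 and Mgst2 ran from -0.072 to 0.62, that of level per kilobase between Mgst3 and Ptges in control eyes from -4.76 to 19.4, and that between Alox5ap and Ltc4s there from -0.070 to 0.60. Lta4h had -0.0075 with the eyes unpaired, -0.16 with the rod covariate, -0.010 with the muscle covariate (added after the data were seen) and -0.091 to 0.11 without each mouse, Ptgs2 -0.070 with the rod covariate, and Hpgd -0.058 to 0.35 without each mouse, none of them past the threshold. With a mean of at least 50 counts Mgst2, Ltc4s and Alox5ap were not tested. The size factors of DESeq2, no filter on low counts and the muscle covariate each kept the 3 family calls (6.41%, 3.65% and 7.49% of all tested genes passed there). Depth limits Mgst2, Ltc4s and Alox5ap most, whose control eyes had as few as 13, 3 and 1 counts.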
